A study of Mus musculus with 15 samples.

Results

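Epithelial cells and Il33+ stromal cells of the same organ, the lung, were compared in 6 of the 15 libraries of the series. The 3 epithelial libraries were sorted as Lin-CD45-Epcam+ cells, and the 3 stromal libraries, here called lung Il33+ MSC, as cells positive for PDGFRα, CD34, Sca1, Podoplanin and the IL-33-citrine reporter and negative for lineage markers, CD45, Epcam, CD31 and CD24. All mice were C57BL/6 heterozygotes for that reporter, so both populations carried 1 reporter allele. The sort purity stated for the series was above 95%, which the authors' methods give for cells from adipose tissue. The series has 3 replicates per population from independent experiments. The age of the mice and the release of cells from the lung are not given in the sources used here. The MSC gate is described for white adipose tissue (WAT), and a separate one for lung is not given in the sources used here. The other 9 libraries, from WAT, were used only where stated.

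The lung surface is lined by epithelium. Club cells secrete uteroglobin-type proteins and carry detoxifying enzymes, ciliated cells clear mucus, alveolar type 2 cells make surfactant, and alveolar type 1 cells form the thin wall for gas exchange. Below lies the stroma, whose fibroblasts lay down collagen and elastin, and in which PDGFRα+ fibroblasts around airways and vessels are a source of IL-33, the alarmin that activates group 2 innate lymphoid cells (ILC2). The 2 compartments exchange signals throughout life: epithelial Hedgehog ligand is received by mesenchyme, and mesenchymal fibroblast growth factors (FGF) are received by epithelium.

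Expression was given as RPKM, the reads of a transcript divided by its length and by the mapped reads of the library. Values were summed over the transcripts of each gene symbol, and a difference is the log2(RPKM + 1) of epithelial cells minus that of lung Il33+ MSC, with its SE from limma. Where values are set against each other without a label, they are RPKM (means, or the 3 libraries in replicate order) with epithelial cells first. A gene was called at a Benjamini-Hochberg adjusted p below 0.05. The epithelial libraries had 42711843 to 54480025 alignments and the stromal libraries 52439750 to 55255628. Epithelial replicate 1 had the fewest, and 7646 of its genes reached 1 RPKM, against 8639 and 8650 in the other epithelial libraries. Correlations of log2 values were 0.868 to 0.943 within the epithelial libraries, 0.941 to 0.961 within the stromal libraries and 0.466 to 0.547 between the populations.

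The populations differed at a large share of genes. Of 9352 genes tested, 4019 (43.0%) were called, of which 1734 (18.5%) were higher in epithelial cells and 2285 (24.4%) in lung Il33+ MSC. The 3 values of one population lay wholly above the 3 of the other for 4991 genes (53.4%). Called genes with a difference over 2 log2 units numbered 1606 (17.2%), and 316 (3.38%) passed 4 log2 units. One gene bears on all of these counts. Scgb1a1 took 57.7 to 62.9% of the summed RPKM of the epithelial libraries, and RPKM divides by all mapped reads, those of Scgb1a1 included. A share of summed RPKM is not a share of reads, because RPKM also divides by transcript length. The share of reads from Scgb1a1 is not given here, so which scaling matches it was not tested. The median difference of all tested genes was -0.13 as deposited, 0.06 after median-ratio scaling and 0.37 after scaling to the sum without Scgb1a1. Median-ratio scaling gave 2096 genes higher in epithelial cells and 1979 higher in stroma, and scaling without Scgb1a1 gave 2975 and 1522. Differences below are read against that shift, and counts of gene lists are those of the deposited scale unless another is named. A gene at or near 0 in one population could be tested only where the other population was above the filter, so that such a gene had to differ, and the counts of lists describe the genes tested.

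The genes used to sort the cells differed in the directions of the gates, which checks the labels and is no finding. Epcam was 25.9, 28.4 and 39.8 RPKM in the 3 epithelial libraries and 0, 0.05 and 0.28 in the stromal libraries. Pdgfra, Cd34, Ly6a (Sca1) and Pdpn (podoplanin) were higher in stroma, with differences of -3.29, -4.71, -3.22 and -3.30. Il33 was 46.99, 42.99 and 55.7 RPKM in stroma and 3.92, 4.05 and 6.4 in epithelial cells. Pecam1 (CD31), an endothelial gene excluded from the MSC gate, was 16.4, 19.1 and 12.4 in epithelial cells and 6.04, 12.9 and 6.84 in stroma, and these values overlapped. Its call was lost without epithelial replicate 1 or 2 or stromal replicate 1 or 3. It was also lost with a pseudocount of 0.1, no filter, lane 2 alone, the most abundant transcript, and all 15 libraries in the fit. Ptprc (CD45) is not analysed here. As these are bulk libraries, fewer cells of a type and less RNA per cell cannot be told apart.

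Genes of club, type 2 and ciliated cells were higher in epithelial cells almost throughout, with club cell genes far ahead, while type 1 genes divided. All 21 tested club cell genes were higher in epithelial cells, with a median difference of 6.21 against -0.13 for all genes. Scgb1a1, the main secretory protein of club cells, was 160613, 208003 and 179632 RPKM in epithelial cells and 72.9, 200.3 and 493 in stroma, a difference of 9.87 ± 0.60 (SE, n = 3 and 3, adjusted p = 2.25e-06 by limma). The stromal values of Scgb1a1 differed among themselves, replicate 3 being the highest, and stayed far below every epithelial value. The airway secretory genes Scgb3a2 (681 ± 174 against 1.31 ± 0.899, mean ± SD), Scgb3a1 (517 ± 283 against 1.67 ± 2.26) and Bpifa1 (567 ± 300.3 against 0.643 ± 0.652) followed. Epithelial replicate 2 was the highest of the 3 libraries for each of these genes, as for Scgb1a1. Cyp2f2, a cytochrome P450 typical of club cells, was 1546, 2471 and 1923 RPKM in epithelial cells and 9.23, 10.5 and 16.97 in stroma. With Cbr2 (7.73), AU040972 (7.05), Sec14l3 (6.94), Cyp2s1 (6.93) and Wfdc2 (6.77), these were the 10 genes with the largest differences on the epithelial side. The lowest club cell difference was that of Por, the reductase that serves cytochrome P450 enzymes in all cells, at 1.14.

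Alveolar type 2 genes were also higher in epithelial cells throughout, 27 of 27 tested, with a median of 3.76. Sftpc, surfactant protein C, was 919, 903 and 1925 RPKM in epithelial cells and 93.4, 27.98 and 40.1 in stroma (difference 4.60 ± 0.45, adjusted p = 3.51e-05). Epithelial replicate 3 was the highest, as it was for Sftpb (250.2, 285 and 555), Sftpa1 (284, 349 and 568) and Sftpd (49.1, 69.1 and 133). The type 2 share of the libraries thus varied: the list took 1.26 to 2.15% of summed RPKM in epithelial cells and 0.145 to 0.251% in stroma. The smaller differences included Abca3, the lipid transporter of lamellar bodies, whose libraries overlapped (4.81, 19.5 and 16.7 against 5.49, 4.51 and 2.94, difference 1.30, adjusted p = 0.0459). The call was lost without epithelial replicate 2 or 3 or any stromal replicate. It was also lost with a pseudocount of 0.1, no filter, the most abundant transcript, and all 15 libraries in the fit.

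Ciliated cell genes were higher in epithelial cells for 46 of 47 tested, with a median of 4.11. Foxj1, the transcription factor of motile cilia, was 37.6, 47.2 and 64.9 RPKM in epithelial cells and 0.23, 1.1 and 1.32 in stroma (4.77 ± 0.32, adjusted p = 3.57e-06). The axonemal genes Dynlrb2 (80.2 ± 22.7 against 0.597 ± 0.882), Ccdc153 (83.6 ± 12.9 against 0.79 ± 0.286) and Dnah5 (19.4 ± 1.38 against 0.09 ± 0.052) did not overlap between populations. The exception was Ccno, a cyclin-like gene of ciliogenesis, at 3.13 and 3.07 (adjusted p = 0.88). Of the basal cell and neuroendocrine lists 1 gene each was tested, Ngfr and Syp, and both were higher in stroma, so these lists say nothing of those epithelial cells.

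Alveolar type 1 genes divided. Of 19 tested, 12 were higher in epithelial cells and 5 in stroma, with a median of 2.64. Ager, a receptor abundant on type 1 cells, was 12.7, 5.18 and 16.1 RPKM in epithelial cells and 1.03, 0.89 and 0.56 in stroma, Aqp5 (a water channel) was 11.3 and 0.48, and Hopx 13.3 and 1.25. These are low next to the club and type 2 genes. The 5 genes higher in stroma were the caveolar gene Cav1 (18.8 against 65.3), Vegfa (9.73 against 32.8), the collagen IV chains Col4a3 (0.58 against 5.75) and Col4a4 (0.42 against 2.28), and the proteoglycan Spock2 (2.32 against 36.5). After median-ratio scaling and scaling without Scgb1a1 5 genes of the list were higher in stroma as well.

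**Figure D1:**
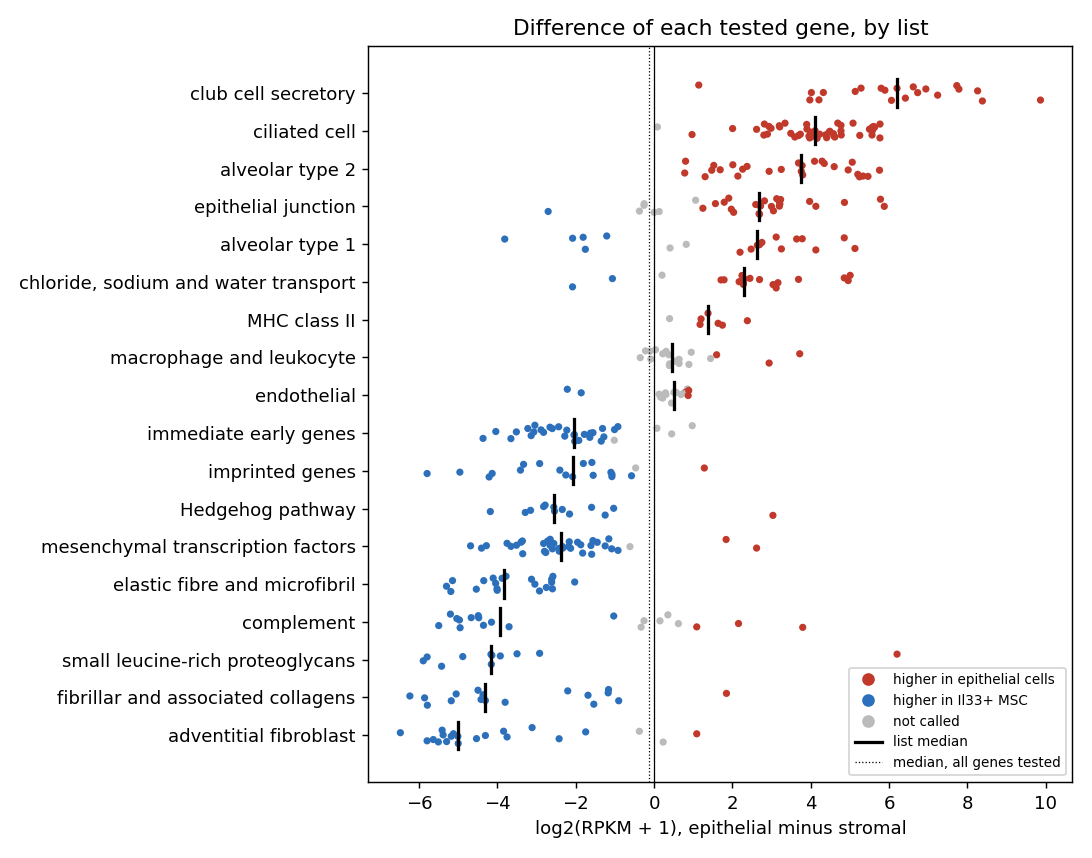
Difference in log2(RPKM + 1), epithelial minus lung Il33+ MSC, for each tested gene (points) of 18 lists, coloured by its call, with the list median as a bar and the median of all 9352 genes as a dotted line. Club, ciliated and type 2 lists lie to the right and matrix lists to the left, with medians from 6.21 for club cell genes to -5.003 for adventitial fibroblast genes.

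Promoters of these lists were searched for the motifs of factors that were themselves higher in epithelial cells. They were Nkx2-1, the lung lineage factor (48.99 ± 14.2 against 0.38 ± 0.308), whose core is CTCAAG, and Rfx2 and Rfx3, which act with Foxj1 on cilia genes (Rfx2 10.7 against 4.79, Rfx3 7.61 against 0.397) and bind half-sites GTTGCC. The call of Rfx2 was lost without epithelial replicate 2 or 3 or stromal replicate 1 or 2, and in a fit of all 15 libraries. Both strands of the 250 bases before each RefSeq start (GRCm38.p6) were searched, and the letters of the motifs do not contain each other. The half-site GTTGCC was in 21 of the 41 ciliated genes with a window (51.2%), in 11.8% of all 27025 genes with one, in 17.6% of genes higher in epithelial cells and in 11.5% of genes higher in stroma. The letters CTCAAG were in 6 of 16 club cell genes (37.5%), 9 of 41 ciliated genes, 3 of 21 type 2 genes (14.3%), 3 of 14 collagens (21.4%) and 15.2% of all genes, and in 15.3% of genes higher in epithelial cells and 15.2% of those higher in stroma. The forkhead letters TGTTTAC, for Foxa1 (34.04 against 0.113) and Foxa2 (2.75 against 0.01), were in 3 of 21 type 2 genes (14.3%), 4 of 41 ciliated genes (9.76%), none of 16 club cell genes and 3.54% of all, and in 2.95% of genes higher in epithelial cells and 2.74% of those higher in stroma. The motifs were chosen after the values were seen, and a match describes letters and no binding. To show them, 2 surfactant promoters with CTCAAG and 2 cilia promoters with GTTGCC are printed 5′ to 3′ on the strand of the gene, with matches to any of the 3 motifs in capitals.
Sftpb, chr6:72304360-72304609, plus strand: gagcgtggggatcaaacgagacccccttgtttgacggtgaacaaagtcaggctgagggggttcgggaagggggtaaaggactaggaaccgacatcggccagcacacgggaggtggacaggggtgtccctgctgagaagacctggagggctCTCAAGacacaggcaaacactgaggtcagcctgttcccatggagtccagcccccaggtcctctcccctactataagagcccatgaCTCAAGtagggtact
Sftpa1, chr14:41131538-41131787, plus strand: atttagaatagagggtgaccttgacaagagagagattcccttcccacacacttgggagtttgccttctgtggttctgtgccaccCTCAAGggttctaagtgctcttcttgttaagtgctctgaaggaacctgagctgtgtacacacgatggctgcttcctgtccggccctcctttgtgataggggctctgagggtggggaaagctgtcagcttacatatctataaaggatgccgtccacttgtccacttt
Dynlrb2, chr8:116504765-116505014, plus strand: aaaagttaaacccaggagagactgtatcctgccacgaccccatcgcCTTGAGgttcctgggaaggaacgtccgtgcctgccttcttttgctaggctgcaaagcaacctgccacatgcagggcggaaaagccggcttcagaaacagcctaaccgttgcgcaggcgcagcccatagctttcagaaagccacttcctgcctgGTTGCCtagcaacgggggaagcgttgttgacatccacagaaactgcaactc
1110017D15Rik, chr4:41507765-41508014, minus strand: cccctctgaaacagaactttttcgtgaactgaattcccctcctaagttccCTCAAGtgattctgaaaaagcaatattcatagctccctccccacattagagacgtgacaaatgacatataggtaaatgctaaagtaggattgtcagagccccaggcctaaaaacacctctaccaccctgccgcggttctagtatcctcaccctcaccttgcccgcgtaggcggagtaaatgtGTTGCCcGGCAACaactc
In the promoter of 1110017D15Rik, a gene of the ciliated list at 31.9, 34.5 and 47.2 RPKM in epithelial cells and 0.21, 0.66 and 0.35 in stroma, GTTGCC and its reverse complement stand 1 base apart, shortly before the start. Its other RefSeq window held no match.

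The genes that hold epithelium together separated the populations with few exceptions. Of 31 junction genes, 24 were higher in epithelial cells, 1 in stroma and 6 were not called. Cdh1 (E-cadherin) was 85.6, 108 and 113 RPKM in epithelial cells and 1.1, 0.42 and 0.77 in stroma, and Cldn3 had 77.5 against 0.383. Cldn1 was the exception, at 0.01, 0.44 and 0.25 in epithelial cells and 6.56, 12.99 and 3.78 in stroma (difference -2.71, adjusted p = 0.000457). The scaffold proteins Tjp1 (24.1 against 21.5) and Ctnnd1 (42.2 against 41.5), which other adherent cells also use, were not called. Both were called higher in epithelial cells after scaling without Scgb1a1, with differences of 0.754 and 0.638 (limma adjusted p = 0.0143 and 0.0124). Keratins of simple epithelia followed Cdh1, with Krt8 at 86.9 against 0.307 and Krt18 at 82.1 against 0.38. All 3 regulators of epithelial splicing were called, Esrp1 (9.37 against 0.02), Esrp2 (8.06 against 0.197) and Rbm47 (8.87 against 0.25). Of 19 genes of chloride, sodium and water transport, 16 were higher in epithelial cells, led by the sodium pump subunit Atp1b1 (99.2 against 2.11) and the sodium channel subunit Scnn1a (53.3 against 0.913), and the pump subunit Atp1b3 (14.3 against 60.2) was higher in stroma.

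Transcripts of one gene could also differ from each other. Of 11335 transcripts tested, 42.1% were called. Among 561 genes with at least 2 called transcripts, 9 had transcripts called in opposite directions. Tpm1, which encodes an actin-binding tropomyosin made in muscle and non-muscle forms, had 2 transcripts higher in stroma, one with mean RPKM 0.72 in epithelial cells and 9.27 in stroma, and 2 higher in epithelial cells, one with 2.07 and 0.04. Cd44, the hyaluronan receptor whose variable exons are known to depend on Esrp1, had 1 transcript at 15.5 in epithelial cells and 27.3 in stroma and another at 2.55 and 0.56. Cp, the copper oxidase ceruloplasmin, had 2 transcripts higher in stroma and 1 higher in epithelial cells (50.7 against 21.95). Psd3, Gse1, Ppp2r3a and Tmem254b were among the others, the last of which is listed as several near-identical copies and is uncertain. Cp and Cd44 were named after their values were seen. With an RPKM of at least 5 there were 2 such genes, and how reads were shared between transcripts of a gene is not given in the sources used here.

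**Figure D2:**
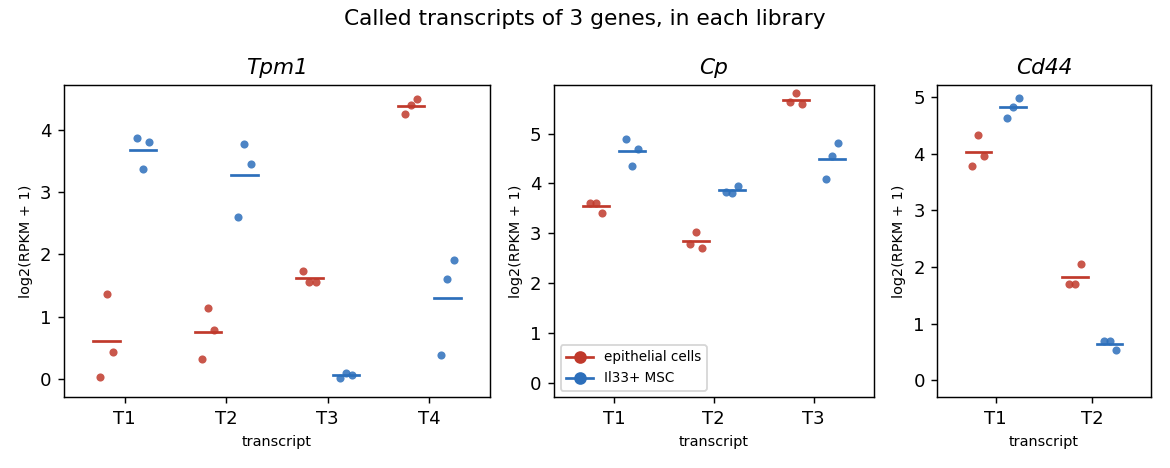
Expression as log2(RPKM + 1) of the called transcripts of Tpm1, Cp and Cd44 (T1 onward within each gene, in order of their difference) in each library, with points for libraries and a bar for the mean of 3. Within each gene the transcripts on the left are higher in lung Il33+ MSC and those on the right in epithelial cells.

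Transcription factors followed the lineages, each list with a few members on the other side. Of 22 epithelial factors, 16 were higher in epithelial cells, among them Nkx2-1 at 36.9, 45.5 and 64.6 RPKM against 0.26, 0.15 and 0.73, Foxa1 and the junction regulator Grhl2 (6.47 against 0.123). On the stromal side were 4: Gata6, which acts in lung endoderm and in mesoderm (3.597 against 9.85), Nfib (9.87 against 60.3), Sox9 (0.853 against 9.603) and Creb3l1 (12.6 against 88.6). Of 38 mesenchymal factors, 35 were higher in stroma, with Osr1 (1.16 against 54.7), Prrx1 (1.67 against 51.2), Meox2 (0.36 against 25.7) and Ebf2 (0.303 against 16.7) in front. The lung mesenchyme factors Tcf21 (1.52, 1.26 and 0.83 against 20.2, 27.1 and 25.2), Tbx4 and Tbx5 did not overlap. Zeb1 and Zeb2, repressors of Cdh1, were 3.45 against 28.2 and 5.89 against 69.5. Runx1, a member of the mesenchymal list, was higher in epithelial cells (21.3 against 4.897). Gata6 was not called after scaling without Scgb1a1 or without stromal replicate 2, nor Runx1 by the most abundant transcript. All 7 tested Hox genes, from the A and B clusters, were higher in stroma, with Hoxa5 at 11.7, 11.2 and 9.54 RPKM in stroma and 0.48, 2.5 and 4.26 in epithelial cells.

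Extracellular matrix genes were among the largest differences on the stromal side. Of 17 tested collagens outside basement membrane, 16 were higher in stroma, as were 10 of 11 small leucine-rich proteoglycans, all 20 elastic fibre genes and 25 of 31 matrix proteases and inhibitors. Col1a1, a chain of type I collagen, was 1658, 2143 and 2646 RPKM in stroma and 20.8, 19.96 and 46.8 in epithelial cells (difference -6.24 ± 0.34, adjusted p = 1.45e-06). Dcn (decorin, which binds collagen fibrils) was 2472, 2509 and 2528 in stroma and 53.1, 29.2 and 54.7 in epithelial cells, the stromal values lying closer together than those of Col1a1. Elastin (Eln) was 103, 107 and 248 in stroma, where replicate 3 was far above the other replicates, and 5.92, 7.26 and 17.8 in epithelial cells. The collagens took 2.72 to 3.59% of summed RPKM in stroma and 0.0263 to 0.0538% in epithelial cells, or 0.0708 to 0.127% there without Scgb1a1. Against their lists went 4 matrix genes: Col8a2 (2.84 against 0.06), the cartilage-type proteoglycan Chad, also in the club cell list, at 38.5, 152 and 83.3 against 0.02, 0.09 and 0.14, and among proteases Mmp15 (15.1 against 0.517), with Serpine2 (18.2 against 5.36).

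The basement membrane between the populations was listed from both. Of 19 genes, 15 were higher in stroma. The laminin chains Lama3 (1.57, 3.03 and 2.59 against 0.08, 0.02 and 0.27) and Lama5 (2.62 against 0.24) were higher in epithelial cells. Lama3 is a chain of the laminin to which epithelial hemidesmosomes attach. The integrin chains that bind that laminin were on the same side, Itga3 (9.397 against 0.53), Itga6 (3.38 against 0.833) and Itgb4 (6.81 against 0.127). The fibronectin-binding chain Itga5 (2.48 against 26.3) and the collagen-binding Itga11 (0.71 against 9.66) were higher in stroma.

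Markers of adventitial fibroblasts, the cells in the sheath of large vessels and airways, were mostly higher in stroma. Of 21 such genes, 18 were higher in stroma, with a median of -5.003. Pi16 had the largest difference of any gene on the stromal side, at 352, 426 and 495 RPKM in stroma and 0.93, 5.05 and 7.98 in epithelial cells (difference -6.48 ± 0.49, adjusted p = 6.75e-06). Dpt (17.1 against 706), Cd248 (3.14 against 173) and Clec3b (4.06 against 218) followed. Il33, a gate gene, is a member, so this list is not independent of the sort. Cd55 was higher in epithelial cells (87.6 against 41.2), and Dpp4 (2.297 against 3.5) and Adh7 (6.64 against 5.84) were not called. The alveolar fibroblast list was less uniform, with 7 of 11 higher in stroma and Ces1d (94.9 against 2.15) and Plin2 (14.4 against 8.62) higher in epithelial cells. The call of Plin2 was lost without epithelial replicate 2 or 3 or any stromal replicate. It was also lost with a pseudocount of 0.1, lane 2 alone, the most abundant transcript, and all 15 libraries in the fit. Of 16 pericyte and smooth muscle genes 7 passed the filter and 4 were higher in stroma, whereas Cspg4, Rgs5, Notch3, Myh11 and Des stayed under it. The 10 largest differences on the stromal side were Pi16, Col1a1, Serpinf1 (-6.17), Lum (-5.90), Col1a2 (-5.86), Scara5 (-5.82), Dcn, Col3a1 (-5.79), Ifi205 (-5.73) and Mmp3 (-5.67).

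Hedgehog ligand and Hedgehog target genes were higher in opposite populations. Shh, the ligand, was 4.91, 9.37 and 8.25 RPKM in epithelial cells and 0, 0.01 and 0.02 in stroma (difference 3.04 ± 0.29, adjusted p = 3.19e-05), and was the only gene of 13 tested in the pathway higher in epithelial cells. The other 12 were higher in stroma, and 11 were after median-ratio scaling or scaling without Scgb1a1. Ptch1, which is both receptor and target, was 56.1, 68.4 and 26.5 in stroma and 3.09, 5.17 and 5.11 in epithelial cells. Gli1, a target that reports signalling, was 13.1, 9.79 and 11.02 in stroma and 2.39, 0.13 and 0.35 in epithelial cells, and the decoy receptor Hhip was 6.67, 9.01 and 6.04 in stroma and 0.56, 0.58 and 0.67 in epithelial cells. In all 4 genes no value of one population reached those of the other. The co-receptors Gas1 (1.17 against 37.5), Cdon (3.72 against 44.8) and Boc (3.88 against 27.6) and the transducer Smo (5.55 against 27.6) were higher in stroma as well.

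For FGF, ligands were higher in stroma and a receptor in epithelial cells. Fgf7, a ligand of the epithelial form of Fgfr2, was 14.5, 21.3 and 14.1 RPKM in stroma and 2.27, 0.88 and 0.31 in epithelial cells. Fgf10, another, was 3.2, 4.35 and 6.06 and 0.35, 0.19 and 1.11. No library of one population overlapped those of the other for either ligand. Fgfr2 was 13.4, 22.8 and 25.1 in epithelial cells and 1.73, 4.36 and 3.99 in stroma (difference 2.31 ± 0.34, adjusted p = 0.000476), and Etv5, a target of FGF signalling, was 15.7 against 2.32. Fgfr1 was the receptor of the stroma, at 32.5, 41.2 and 42.99 in stroma and 0.54, 2.97 and 2.24 in epithelial cells. Of the 17 genes tested in the FGF and HGF list, 5 were higher in epithelial cells and 7 in stroma. Fgf1 (34.05 against 6.27) was the 1 FGF ligand higher in epithelial cells, and Fgf2 (0.47 against 7.14) and Fgf18 (0.25 against 7.5) were higher in stroma. Met, the receptor of HGF, was higher in epithelial cells (7.19 against 0.677), while its ligand Hgf stayed under the filter, at 0.85, 0.1 and 0 RPKM in epithelial cells and 0.87, 1.7 and 1.07 in stroma.

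Pdgfa and 4 of 5 tested ligands of the epidermal growth factor (EGF) family were higher in epithelial cells, and Pdgfra, Pdgfrb and Egfr in stroma. Pdgfa was 34.2, 40.3 and 48.9 RPKM in epithelial cells and 12.4, 7.21 and 9.52 in stroma (difference 1.99 ± 0.25, adjusted p = 0.000175), and its receptor Pdgfra, a gate gene, was 8.42, 3.84 and 3 in epithelial cells and 60.3, 66.3 and 40.6 in stroma. Of the 15 genes tested in the PDGF and VEGF list Pdgfa was higher in epithelial cells, as the only one on the deposited scale and as 1 of 3 after median-ratio scaling or scaling without Scgb1a1, and 11 were higher in stroma, among them Pdgfd (0.333 against 6.74) and Vegfc (0.317 against 4.94). Pdgfrb, which was not used in the sort, was 0.88 against 20.97. Of the EGF family ligands Areg, made by many tissues in repair, was 22.96, 38.2 and 70.6 in epithelial cells and 0.03, 0.69 and 0.42 in stroma, and Tgfa (5.24 against 0.157), Nrg1 (5.71 against 0.63) and Hbegf (10.7 against 2.22) were also higher in epithelial cells. Ereg was higher in stroma (0.207 against 3.03). Among receptors Egfr was higher in stroma (3.93, 3.7 and 5.48 against 30.6, 29.3 and 33.98, difference -2.60), and Erbb3, which binds neuregulins, in epithelial cells (3.35 against 0.0267). Erbb2 was not called (difference 0.85, 95% interval -0.05 to 1.75). It was called higher in epithelial cells after median-ratio scaling and after scaling without Scgb1a1.

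**Figure D3:**
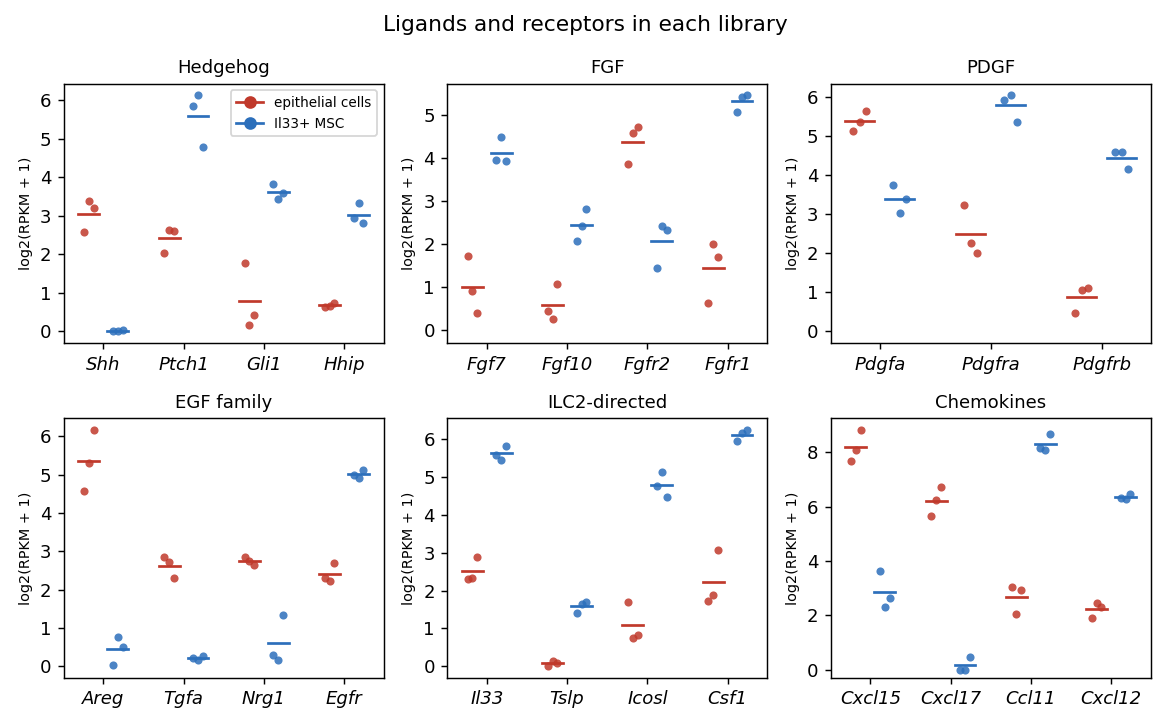
Expression as log2(RPKM + 1) of ligands and receptors in each library, points standing for libraries and bars for the mean of 3. Shh, Pdgfa, Areg and Fgfr2 are higher in epithelial cells, and Ptch1, Gli1, Fgf7, Fgf10, Pdgfra and Egfr in lung Il33+ MSC.

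More Wnt, BMP and IGF genes were higher in stroma than in epithelial cells. Of 27 Wnt genes 13 were higher in stroma and 4 in epithelial cells. Wnt ligands were found on both sides, Wnt4 (4.63 against 0.433) in epithelial cells and Wnt2b (0.48 against 19.7), Wnt5a (3.04 against 19.9) and Wnt9a (0.153 against 5.92) in stroma. The secreted inhibitors divided likewise, Wif1 being 2.35, 2.49 and 2.31 RPKM in epithelial cells and listed at 0 in all 3 stromal libraries, and Sfrp1 being 151, 113 and 148 in stroma and 4.33, 2.95 and 8.8 in epithelial cells. Of 32 BMP and TGF-beta genes, 20 were higher in stroma, 18 after median-ratio scaling and 15 after scaling without Scgb1a1. Bmp4 was 8.81 against 80.5 and Tgfb3 3.72 against 60.1, while Inhbb was the 1 gene higher in epithelial cells (2.5 against 0.213). Of 14 IGF genes 11 were higher in stroma and none in epithelial cells, Igfbp4 being 13.3 against 633 and Igf1 2.23 against 51.4. After median-ratio scaling 1 and after scaling without Scgb1a1 2 IGF genes were higher in epithelial cells. For Notch, the target genes Hes1 (25.1 against 5.66) and Nrarp (3.29 against 0.183) and the ligand Jag1 (8.92 against 3.73) were higher in epithelial cells and Heyl (2.08 against 18.7) in stroma, the call of Jag1 being lost without replicate 2 or 3 of either population.

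Enzymes that make retinoic acid from retinaldehyde differed in kind. Aldh1a1 was 363, 606 and 667 RPKM in epithelial cells and 17.7, 30.1 and 38.9 in stroma (difference 4.21). Aldh1a2 was 0.63, 0.67 and 0.21 and 33.5, 29.9 and 47.8 (difference -4.65), and Aldh1a3 0.06 against 10.3. Of the receptors, Rarb was higher in epithelial cells (3.94 against 0.833). The wider detoxification list had 27 of 53 genes higher in epithelial cells and 11 in stroma, or 34 and 10 after scaling without Scgb1a1. The stromal side held Adh1 (7.99 against 122), Cyp1b1 (3.95 against 37.7) and Fmo2 (52.7 against 167), and the epithelial side Cyp2b10 (53.05 against 0.513) and Gsta4 (139 against 4.71). The peroxidase Gpx2, of the antioxidant list, was 14.3, 27.6 and 28.8 in epithelial cells and listed at 0 in all 3 stromal libraries.

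Of 13 tested genes in a list of cytokines of ILC2, other growth and survival factors and the opioid precursor Penk, 8 were higher in stroma and 2 in epithelial cells. Beside Il33, a gate gene, they were Tslp, Il6, Csf1, Icosl, Tnfsf13b, Lif and Penk. Tslp, an epithelial-type alarmin, was low in both, at 1.66, 2.11 and 2.27 RPKM in stroma and 0, 0.11 and 0.06 in epithelial cells (difference -1.51 ± 0.24, adjusted p = 0.000699). Icosl, which binds ICOS on ILC2 and T cells, was 26.03, 33.9 and 21.2 in stroma and 2.22, 0.68 and 0.76 in epithelial cells. Csf1, the macrophage growth factor, was 60.5, 70.1 and 74.2 in stroma and 2.28, 2.67 and 7.39 in epithelial cells, and Il6 161, 180.2 and 404 in stroma and 6.62, 3.62 and 16.2 in epithelial cells, with stromal replicate 3 the highest. Areg and Il1b (6.42 against 1.41) were the 2 higher in epithelial cells, and Kitl was not called (3.17 against 2.45).

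Receptors for immune cytokines were called in both directions. Il18r1, a chain of the IL-18 receptor, was 73.1, 52.7 and 71.8 RPKM in epithelial cells and 0.26, 0.39 and 0.66 in stroma (difference 5.54 ± 0.24, adjusted p = 7.01e-07). The epithelial receptors for IL-22 and type III interferon, Il22ra1 (4.08 against 0.0167) and Ifnlr1 (4.22 against 0.0733), were on the same side. The 2 receptor chains for type 2 cytokines differed, Il13ra1 being higher in epithelial cells (4.47, 8.48 and 6.43 against 1.23, 1.43 and 2.47) and Il4ra in stroma (0.66, 3.44 and 1.94 against 6.89, 7.96 and 8.01). Receptors for IL-17 (Il17ra, 6.17 against 49.4), IL-1 (Il1r1, 12.5 against 57.9) and the IL-6 family (Il6st, 29.3 against 158, and Osmr, 8.61 against 38.5) were higher in stroma. Of 27 receptors 6 were higher in epithelial cells and 12 in stroma, or 8 and 9 after scaling without Scgb1a1. The shares of all genes on these sides were 18.5% and 24.4%. After that scaling, 2975 and 1522 of all 9352 genes were called on these sides.

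Chemokines and adhesion ligands differed by member. Of 26 chemokine genes, 14 were higher in stroma and 5 in epithelial cells. Cxcl15 (lungkine) was 204, 270.1 and 449 RPKM in epithelial cells and 11.3, 3.91 and 5.28 in stroma, and Cxcl17 was 49.1, 74.7 and 104 and 0, 0 and 0.38. The eosinophil chemoattractant Ccl11 was 283, 269.5 and 412 in stroma and 7.17, 3.1 and 6.63 in epithelial cells, and the neutrophil chemokine Cxcl1 was 614, 561 and 904 in stroma and 20.1, 11.2 and 21.5 in epithelial cells. Cxcl12, which retains leukocytes in tissues, was 78.2, 77.6 and 87.97 in stroma and 2.69, 4.47 and 3.96 in epithelial cells. Vcam1 (6.28 against 74.5) and Icam1 (29.04 against 93.3), ligands of leukocyte integrins, were higher in stroma, and Alcam (63.3 against 3.18) and F11r (52.6 against 7.03) in epithelial cells. Of 20 complement genes 12 were higher in stroma and 3 in epithelial cells, with the C1 inhibitor Serping1 at 2053, 2139 and 2090.5 in stroma and 71.1, 45.6 and 53.8 in epithelial cells and C3 at 65.6 against 1478. The 3 complement genes on the epithelial side were the regulator Cd55 and the terminal components C6 (4.997 against 0.25) and Hc, the gene of C5 (26.3 against 1.07).

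Of 7 MHC class II genes, 6 were higher in epithelial cells, with a median of 1.38. Cd74, the invariant chain, was 153, 245 and 387 RPKM in epithelial cells and 34.9, 46.02 and 60.2 in stroma, and H2-Aa was 33.1, 56.1 and 71.7 and 11.4, 18.2 and 18.8. In a fit of all 15 libraries 3 genes of the list were called, and neither of these was among them. Type 2 cells are known to express class II, and so do macrophages and other leukocytes. Of 20 macrophage and leukocyte genes 3 were higher in epithelial cells (Lyz2, Lcp1 and Plet1) and none in stroma. The shares of all genes on these sides were 18.5% and 24.4%. After scaling without Scgb1a1 the 3 rose to 10, where 2975 of all 9352 genes were higher in epithelial cells. Without epithelial replicate 3 the 3 rose to 5. The list summed to 893 to 1564 RPKM in epithelial cells, most of it Lyz2, also a type 2 gene (658, 1059 and 1301), and to 246 to 299 in stroma (145, 129 and 105). Chil3, an alveolar macrophage gene, was 45.03 and 44.8, and Marco 2.01 and 2.497. The share of the class II difference that belongs to such cells was not tested.

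Of 17 endothelial genes tested, 29.4% were called, against 43.0% of all genes. On the epithelial side were 3, where 18.5% of all genes lay, and 2, Ramp2 and Tek, were higher in stroma. Median-ratio scaling changed the 3 to 7 and scaling without Scgb1a1 to 10. Of all 9352 genes, 2096 and 2975 were higher in epithelial cells on those 2 scales. The 3 became 5 without epithelial replicate 3, 1 without stromal replicate 3, and none without epithelial replicate 1 or 2 or stromal replicate 1. The list summed to 127 to 193 RPKM in epithelial cells, 104 to 167 in stroma and 1138 to 1443 in the endothelial libraries of WAT. The part of endothelial RNA in any result was not tested.

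Immediate early genes, induced within minutes by growth factors and stress, tissue dissociation included, were higher in stroma for 28 of 32 and in epithelial cells for none. They took 7.87 to 9.37% of summed RPKM in stroma and 0.692 to 1.06% in epithelial cells, or 1.79 to 2.51% there without Scgb1a1. Zfp36, a regulator of mRNA decay, was 5106, 5288 and 4777 RPKM in stroma and 452, 640.2 and 746 in epithelial cells, and Egr1 was 3652, 3704 and 3186 and 326, 507 and 729.9. With scaling without Scgb1a1, 23 genes were higher in stroma and 2 in epithelial cells. Il6, Cxcl1, Ccl2 (2.77 against 77.1), Ptgs2 (26.6 against 285) and Icam1, named here among stromal genes, can be induced by the same stimuli, and the part of cell isolation in them was not tested. Among 14 heat shock genes 8 were higher in stroma, led by Dnajb1 (67.3 against 443), and 2 in epithelial cells, Hsp90aa1 (235 against 91.4) and Hsph1 (51.1 against 13.2). These counts were 6 and 3 after median-ratio scaling and 6 and 4 after scaling without Scgb1a1.

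**Figure D4:**
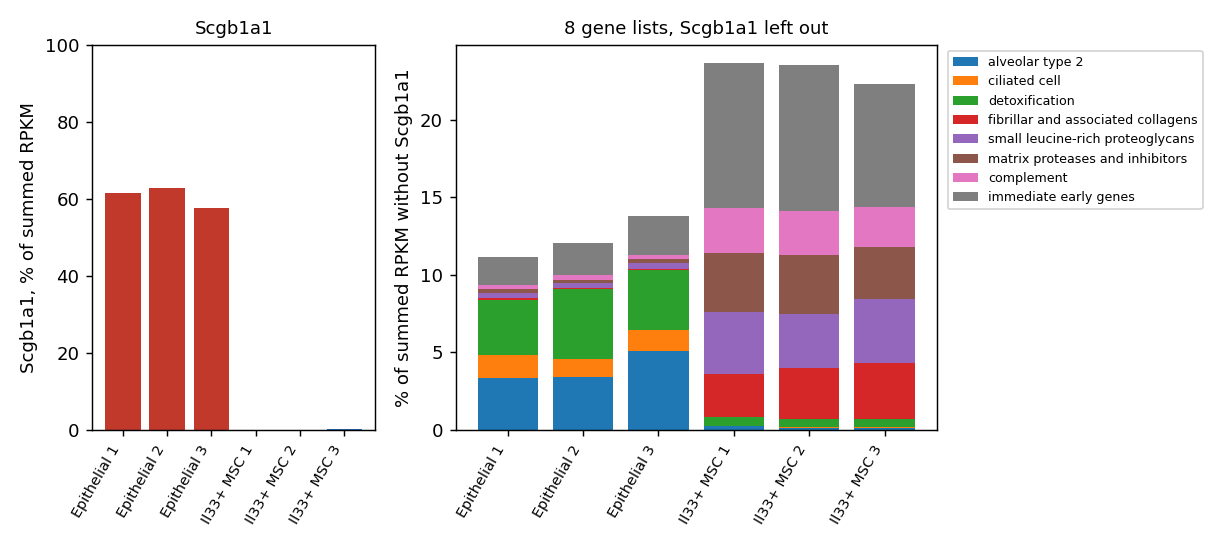
Share of summed RPKM per library, with Scgb1a1 at 57.7 to 62.9% in the 3 epithelial libraries (left, bars in %) and 8 gene lists as stacked bars in % of the sum without Scgb1a1 (right; a gene in 2 lists is counted in each). Matrix, complement and immediate early lists take more of the stromal bars, and type 2, ciliated and detoxification lists more of the epithelial bars. Immediate early genes also take 1.79 to 2.51% of the epithelial bars.

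Antioxidant genes were called in both directions. Of 26 tested, 8 were higher in epithelial cells and 7 in stroma. The shares of all genes on these sides were 18.5% and 24.4%. Of the intracellular enzymes, Prdx6 (172 against 17.6), a peroxiredoxin, and Gclc (56.1 against 9.95), which makes glutathione, were higher in epithelial cells. The secreted enzymes Sod3, at 486, 486 and 628 RPKM in stroma and 21.1, 33.2 and 48.7 in epithelial cells, and Gpx3 (42.6 against 626) were higher in stroma, as were the metallothioneins Mt1 (262 against 781) and Mt2 (150.4 against 717). After scaling without Scgb1a1 the counts were 14 and 5, against 2975 and 1522 of all 9352 genes, and Mt1 was not called.

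Of 15 prostaglandin genes 5 were higher in epithelial cells and 5 in stroma, or 8 and 4 after scaling without Scgb1a1. The shares of all genes on these sides were 18.5% and 24.4%. After that scaling, 2975 and 1522 of all 9352 genes were called on these sides. The synthases Ptgs2, Ptges (1.95 against 14.7) and Ptgis (2.4 against 21.8) were higher in stroma, and the carbonyl reductases Cbr2, Cbr1 (35.9 against 5.21) and Cbr3 (16.2 against 1.71) in epithelial cells. Of 29 genes of surfactant and sterol lipid synthesis 11 were higher in epithelial cells and 4 in stroma. The same shares of all genes stand beside these counts. The desaturase Scd1 (115 against 21.3) and Lpcat1 (24.4 against 4.96), which remodels surfactant phospholipid, were higher in epithelial cells, and the desaturases of polyunsaturated fatty acids Fads1 (10.3 against 23.1) and Fads2 (3.86 against 14.9) in stroma. After scaling without Scgb1a1 these counts were 16 and 1, and Fads1 was not called. The 11 became 7 without epithelial replicate 2 or 3 or stromal replicate 2, and the 4 became 2 without epithelial replicate 2 or stromal replicate 1 or 2.

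Interferon response genes were higher in stroma for 13 of 30 and in epithelial cells for 2, Usp18 (4.56 against 0.517) and Isg20 (38.4 against 19.1). Gbp2, a guanylate-binding protein, had the largest difference, at 29.1, 36.4 and 31.9 RPKM in stroma and 0.61, 2.66 and 2.19 in epithelial cells. Of 14 class I MHC genes 5 were higher in stroma, among them B2m, the shared light chain (183 against 682), none was higher in epithelial cells and 9 were not called. These counts were 4 and 0 after median-ratio scaling and 4 and 1 after scaling without Scgb1a1. The interferon counts became 6 and 5 after scaling without Scgb1a1, and the 13 became 8 without stromal replicate 2 and 6 without stromal replicate 3. Of all 9352 genes, 2285 (24.4%) were higher in stroma and 1734 (18.5%) in epithelial cells as deposited. After scaling without Scgb1a1 these were 1522 and 2975. Genes higher in stroma numbered 1812 without stromal replicate 2 and 1894 without stromal replicate 3.

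The imprinted gene list was nearly all stromal, 17 of 19 genes. It includes Peg3 (1.36 against 42.6), the noncoding Meg3 (0.663 against 28.2), Ndn (0.463 against 14.5) and Igf2 (3.803 against 22.4). Cdkn1c, an imprinted inhibitor of the cell cycle, was higher in epithelial cells, at 26.4, 22.7 and 26.4 RPKM against 9.33, 9.52 and 10.3, and Plagl1 was not called. Dcn is also in this list. After median-ratio scaling 15 were higher in stroma, and after scaling without Scgb1a1 13.

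Counts for genes of general cell machinery depended on the scaling. Of 92 cytoplasmic ribosomal protein genes, 3 were higher in stroma and none in epithelial cells as deposited, 1 and 1 after median-ratio scaling, and none against 39 after scaling without Scgb1a1. Of 82 oxidative phosphorylation subunits, 19 were higher in epithelial cells as deposited, 37 after median-ratio scaling and 55 after scaling without Scgb1a1, with 2, 1 and 1 higher in stroma. Of 37 proteasome subunits 8, 11 and 22 were higher in epithelial cells and none in stroma. Of all 9352 genes, 1734, 2096 and 2975 were higher in epithelial cells on these scales, and 2285, 1979 and 1522 in stroma.

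Epithelial genes in the lung stromal libraries were compared with WAT stroma, which has no lung epithelium. In lung and WAT Il33+ MSC, 8554 genes were tested and 299 (3.5%) were higher in lung. Of the 27 type 2 genes listed, 19 could be tested and 7 were higher in lung Il33+ MSC, as were 3 of 6 tested of 21 club cell genes and 2 of 9 tested of 19 type 1 genes, and none of 7 tested ciliated genes. Those near 0 in WAT were tested only through the lung libraries, so these counts are a description. Sftpc was 93.4, 27.98 and 40.1 RPKM in lung Il33+ MSC and 0.31, 0.33 and 1.41 in WAT Il33+ MSC (4.90 ± 0.42, adjusted p = 0.000147 by limma), the lung mean being 4.31% of the epithelial mean. Sftpa1 (0.17, 0.16 and 0.76 in WAT) and Cyp2f2 (0.58, 0.65 and 1.84 in WAT) were also higher in lung. Scgb1a1 was not, being 71.2, 78.3 and 134 RPKM in WAT itself (1.08 ± 0.55, adjusted p = 0.354), and so it was listed in libraries without lung cells too. It was called without lung Il33+ MSC replicate 1. Of macrophage genes, 11 of 16 were higher in lung. The lung mean of Sftpb was 1.81% of the epithelial mean and that of Scgb1a1 0.140%, and the part of epithelial RNA carried into the stromal libraries was not tested.

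**Figure D5:**
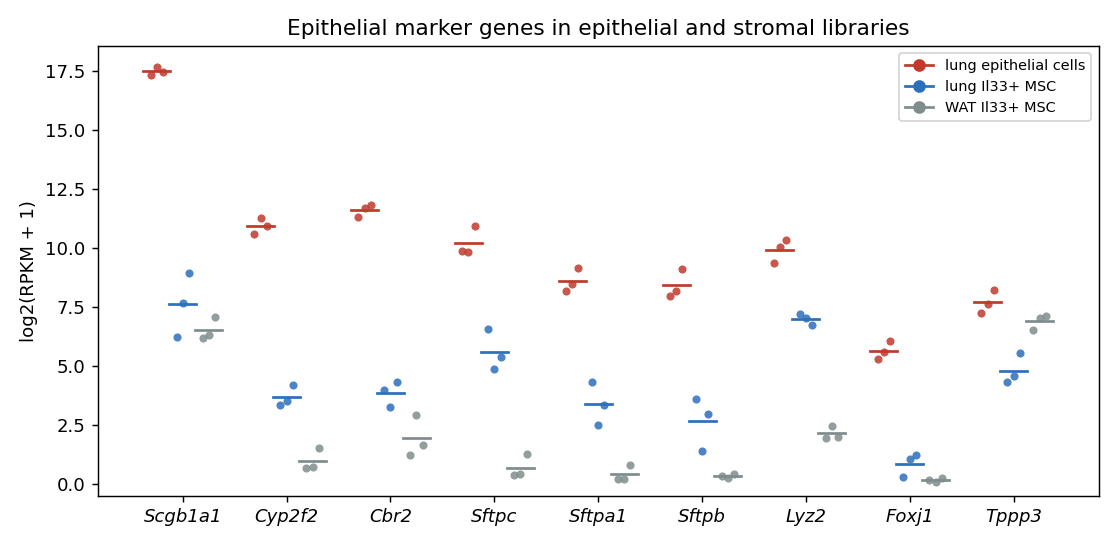
Expression as log2(RPKM + 1) of 9 epithelial marker genes in lung epithelial cells, lung Il33+ MSC and WAT Il33+ MSC, with points for libraries and a bar for the mean of 3. Surfactant genes and Cyp2f2 lie between the other groups in lung Il33+ MSC, whereas Scgb1a1 overlaps in both stromal groups and Tppp3 is higher in WAT.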

How the data were processed

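RNA from sorted cells was amplified with the Ovation RNA-seq System V2 and sequenced. The authors aligned reads to mm10 with TopHat2 and quantified them in Partek, per the labels and the submitters' processing notes (versions not given in the sources used here), and deposited RPKM per RefSeq transcript. The table holds 12698 transcripts of 10222 gene symbols, and only 41 transcripts were below 1 RPKM in every library, so genes low throughout are not analysed here. RPKM was summed per symbol. Genes with at least 1 RPKM in 3 of the 6 libraries were tested with limma 3.58.1 in R 4.3.3 on log2(RPKM + 1), with a trended variance prior and Benjamini-Hochberg adjustment over all genes tested. Fold changes on this scale understate those of low genes. Values have 2 decimals, from which whole reads could not be recovered, so no counting interval is given. With 3 against 3 libraries an exact permutation test cannot go below p = 0.1. The 3 replicates are stated to be independent experiments. In both populations replicate 1 was run in lane 1 and replicates 2 and 3 in lane 2.

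Genes were named by rule: the sort gates, the 10 largest differences in each direction, up to 4 called members of each list in each direction, members against their list's majority, and members with a described role. Some genes that the rule names are not reported here. The members and lists were chosen with earlier results of these data known, so the lists are described by counts and medians. Alternatives were median-ratio, quantile and Scgb1a1-free scaling, a pseudocount of 0.1, no filter or an RPKM of at least 5, lane or replicate number in the model, lane 2 alone, all 15 libraries, the most abundant transcript, and each library left out, with lane 2 alone and the left-out libraries tested over the genes of the 6-library fit. Promoter sequences are from RefSeq (GRCm38.p6), with a window for 7145 of the 9352 genes tested.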

Additional observations from a re-analysis of the deposited data

How the results depend on the processing

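Of 229 named genes tested, 219 were called. Of these, 208 kept their call and direction under every alternative in which they were tested, 11 lost the call under at least 1, and 32 were not tested under at least 1. The genes called numbered 3302 to 4165 with a library left out. Genes higher in epithelial cells numbered 2975 with the sum without Scgb1a1, 1069 with an RPKM of at least 5, and 1490 to 1987 with a library left out. Genes higher in stroma numbered 1522 with the sum without Scgb1a1, and 1812 to 2181 with a library left out. Genes with opposite transcripts numbered 2 with an RPKM of at least 5 and 7 to 10 with a library left out. Epithelial markers higher in lung than in WAT Il33+ MSC numbered 9 to 13 with a library left out. Without Scgb1a1 in the sum the mean share became 7.53% for club cell genes in epithelial cells and 0.0478% in stroma, 0.0986% for collagens in epithelial cells and 2.13% for immediate early genes in epithelial cells. The deviations of libraries with the same replicate number correlated weakly (0.051, 0.075 and 0.136), and those with different numbers at -0.071 to 0.002. Every sample correlated best with its own number. Whether the numbers pair the samples cannot be told from these values, and replicate 1 of both populations also shared lane 1. With replicate number as a block 4186 genes were called, 1817 higher in epithelial cells and 2369 in stroma, 12 genes had opposite transcripts and 11 epithelial markers were higher in lung stroma. The cause of these shifts was not tested. Of named genes that were not called, Chil3, Tjp1, Ctnnd1 and Erbb2 were called higher in epithelial cells with the sum without Scgb1a1, Ctnnd1 also with quantile normalization, and Erbb2 also with median-ratio scaling, in lane 2 alone and without epithelial replicate 1. Some differences that were not called changed sign. With the sum without Scgb1a1 Dpp4 was 0.065, Marco 0.022 and Plagl1 0.098. In lane 2 alone Dpp4 was 0.285 and Marco 0.344. With the most abundant transcript Ctnnd1 was -0.131 and Tjp1 -0.102. With a library left out Adh7 ranged from -0.091 to 0.562, Ccno from -0.133 to 0.451, Chil3 from -0.147 to 0.223, Ctnnd1 from -0.108 to 0.175, Dpp4 from -0.692 to 0.016, Marco from -0.689 to 0.158 and Tjp1 from -0.017 to 0.332.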
